A study of Homo sapiens with 36 samples.

Results

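The extracellular matrix genes described here are the collagen chains, the laminin chains and a small set of matrix glycoproteins and crosslinking enzymes. Members were taken by symbol: every collagen chain gene, every laminin alpha, beta or gamma chain gene, and FN1, TNC, LOX, LOXL1 to LOXL4, FBN1, FBN2, THBS1 and THBS2. The rule gave 54 of the 15186 genes in the count table, namely 32 collagen chains, 11 laminin chains and 11 glycoproteins or LOX family members. All 54 passed the filter on low counts. COL1A2, the partner chain of COL1A1, was not analysed here.

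The 36 libraries were total RNA from U2OS, a human osteosarcoma cell line, stably transfected with glucocorticoid receptor alpha. Every group carries that transgene, and the line is described in the labels without a clone or promoter. Cells received siRNA for 48 h and then 8 h of either 100 nM dexamethasone (dex, a synthetic glucocorticoid) or ethanol vehicle. The 6 siRNA conditions were a non-silencing control (siNSsiNS), the single siRNAs siHic5siNS, siCHD9siNS and siBRMsiNS, each combined with non-silencing siRNA, and the combinations labelled siCHD9siHic5 and siBRMsiHic5, each with 3 replicates made on different days. Hic-5 is a LIM-domain coregulator of steroid receptors encoded by TGFB1I1, CHD9 is a chromodomain remodeler, and BRM is the SWI/SNF ATPase encoded by SMARCA2. The study asked whether the remodelers are needed for what the cells do once Hic-5 is lost, so the same siRNA against Hic-5 was tested in 3 backgrounds.

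Collagens and laminins are trimers. Collagen IV and laminins form the sheet of the basement membrane, fibrillar collagens such as types I, III, V and XI form fibrils, and collagen VI forms beaded filaments around cells. Fibronectin (FN1) is assembled at the cell surface through integrins and guides the deposition of other matrix proteins, fibrillins build microfibrils, tenascin C and thrombospondins modulate adhesion, and the lysyl oxidases crosslink collagen and elastin. Bone-derived cells are known for secreting type I collagen, and glucocorticoids are known to act on matrix genes.

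Promoter windows of 250 bases before to 50 after the annotated start are given for 4 members that bear the results below (RefSeq, GRCh38.p14, 5′ to 3′). They show a strongly raised glycoprotein (FN1), a collagen IV chain that shares its promoter with a neighbour (COL4A2), the collagen VI chain with the largest rise (COL6A3) and a laminin chain that fell (LAMA5). Capitals mark matches to the CRE letters TGACGTCA, the GC box GGGCGG or the CCAAT box, on either strand and allowing overlap.
FN1 (chr2:215436019-215436318, minus strand): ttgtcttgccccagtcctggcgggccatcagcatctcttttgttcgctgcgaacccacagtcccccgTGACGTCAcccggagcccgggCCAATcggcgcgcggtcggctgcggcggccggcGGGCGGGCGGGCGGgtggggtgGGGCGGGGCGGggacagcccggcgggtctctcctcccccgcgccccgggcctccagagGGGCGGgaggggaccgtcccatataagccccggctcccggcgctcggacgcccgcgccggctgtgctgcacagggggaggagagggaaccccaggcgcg
COL4A2 (chr13:110307034-110307333, plus strand): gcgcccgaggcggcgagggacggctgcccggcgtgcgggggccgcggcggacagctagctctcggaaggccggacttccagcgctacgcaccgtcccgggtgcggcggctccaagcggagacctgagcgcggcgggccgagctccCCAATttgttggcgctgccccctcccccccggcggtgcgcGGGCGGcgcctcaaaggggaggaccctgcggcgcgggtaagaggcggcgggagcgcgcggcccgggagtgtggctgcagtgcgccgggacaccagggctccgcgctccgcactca
COL6A3 (chr2:237414115-237414414, minus strand): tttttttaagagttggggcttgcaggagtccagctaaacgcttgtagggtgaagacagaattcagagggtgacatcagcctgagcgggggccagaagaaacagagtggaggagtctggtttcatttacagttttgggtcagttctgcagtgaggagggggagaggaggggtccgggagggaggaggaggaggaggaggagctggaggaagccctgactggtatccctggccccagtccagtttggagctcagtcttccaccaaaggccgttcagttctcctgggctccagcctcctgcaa
LAMA5 (chr20:62367263-62367562, minus strand): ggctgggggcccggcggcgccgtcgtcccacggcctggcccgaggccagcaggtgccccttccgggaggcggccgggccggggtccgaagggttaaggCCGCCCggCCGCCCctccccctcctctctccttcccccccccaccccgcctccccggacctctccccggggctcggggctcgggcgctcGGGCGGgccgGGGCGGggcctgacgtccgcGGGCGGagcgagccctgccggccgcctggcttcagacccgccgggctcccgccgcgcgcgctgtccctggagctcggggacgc
GC made up 76.7% of the FN1 window and 82.7% of the LAMA5 window, but 56.3% of the COL6A3 window, which held no match. RefSeq windows matched 41 of the 54 members, some with more than 1 start, giving 50 windows. GC boxes were found in 68.0% of these and in 45.0% of all 35116 windows, CCAAT boxes in 24.0% and 34.6%, TATAAA in 12% and 11.5%, TGANTCA (AP-1) in 4.0% and 7.71%, and the CRE in 2.0% and 1.85%. The palindromic glucocorticoid response element was in 0 of the member windows and in 0.39% of all windows. A match is only a match of letters. The median GC content was 65.8% over the member windows and 58.7% over all windows.

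Library totals lay between 27.4 and 47.1 M counts (median 34.6 M). Hic-5 transcript levels followed the labels: TGFB1I1 stood at 27.9, 29.3 and 28.1 scaled CPM (CPM after upper-quartile scaling) in the siNSsiNS vehicle libraries and at 5.27, 11.2 and 4.74 with siHic5siNS (log2 -2.01 ± 0.24, adjusted p = 1.47e-07, edgeR). It was at log2 -1.93 with siCHD9siHic5 and -2.45 with siBRMsiHic5. SMARCA2 was lower with siBRMsiNS (-1.79 ± 0.18) and siBRMsiHic5 (-2.01 ± 0.18). CHD9 was lower with siCHD9siNS (-0.56 ± 0.18, adjusted p = 0.0194) but higher in the libraries labelled siCHD9siHic5 (0.47 ± 0.18, adjusted p = 0.0292), against their label, so that group is named by its label only. Summed mesenchymal markers (4 of 4 in the table) ran from 1227 to 2378 scaled CPM over the 36 libraries, epithelial markers (5 of 6) from 15.5 to 69.5, endothelial markers (6 of 6) from 2.21 to 21.7 and blood markers (2 of 6) from 4.18 to 16.9. The 5 osteoblast-lineage markers in the table summed to 88.7 to 156, and the other 5 listed, among them SP7 and BGLAP, were not analysed here. The 28S rRNA gene took 0.324 to 7.51% of a library's counts. It exceeded 3% in 10 libraries, 7 of them siBRMsiNS or siBRMsiHic5, and its part in the results of those conditions was not tested beyond the counts without these libraries given below. In bulk RNA, a shift in the share of cells expressing a gene and a shift in its RNA per cell cannot be told apart.

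In control vehicle cells the members spanned a wide range of levels. Per kilobase of exon (GENCODE v29), COL1A1, the main chain of type I collagen in bone, was the most abundant at 207 ± 23.9 scaled CPM per kb (mean ± SD, n = 3). LOXL4, a lysyl oxidase-like enzyme, followed at 123 ± 16.4 and the adhesion modulator THBS1 at 78.2 ± 17.6. The laminin gamma 1 chain LAMC1 (59.2 ± 2.45), FN1 (51.2 ± 16.1), LAMB3 (49.5 ± 5.80), COL12A1 (48.6 ± 2.25) and COL6A1 (45.6 ± 14.5) came next. The means of the first 3 genes were separated by more than their SDs, whereas among the next 5 no neighbours in this order differed beyond their spread. LAMA4 stood lowest at 0.0274 ± 0.0176, with COL6A5 (0.0280 ± 0.00723) and COL4A6 (0.0310 ± 0.0148) within its spread. LAMC1, a chain shared by most laminin trimers, also varied least: its highest group mean was 1.46 times its lowest. The same ratio was 18.8 for LAMA4, 16.9 for COL8A2, 11.5 for COL17A1, 9.0 for COL6A3, 8.30 for FBN1 and 7.69 for FN1.

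**Figure D1:**
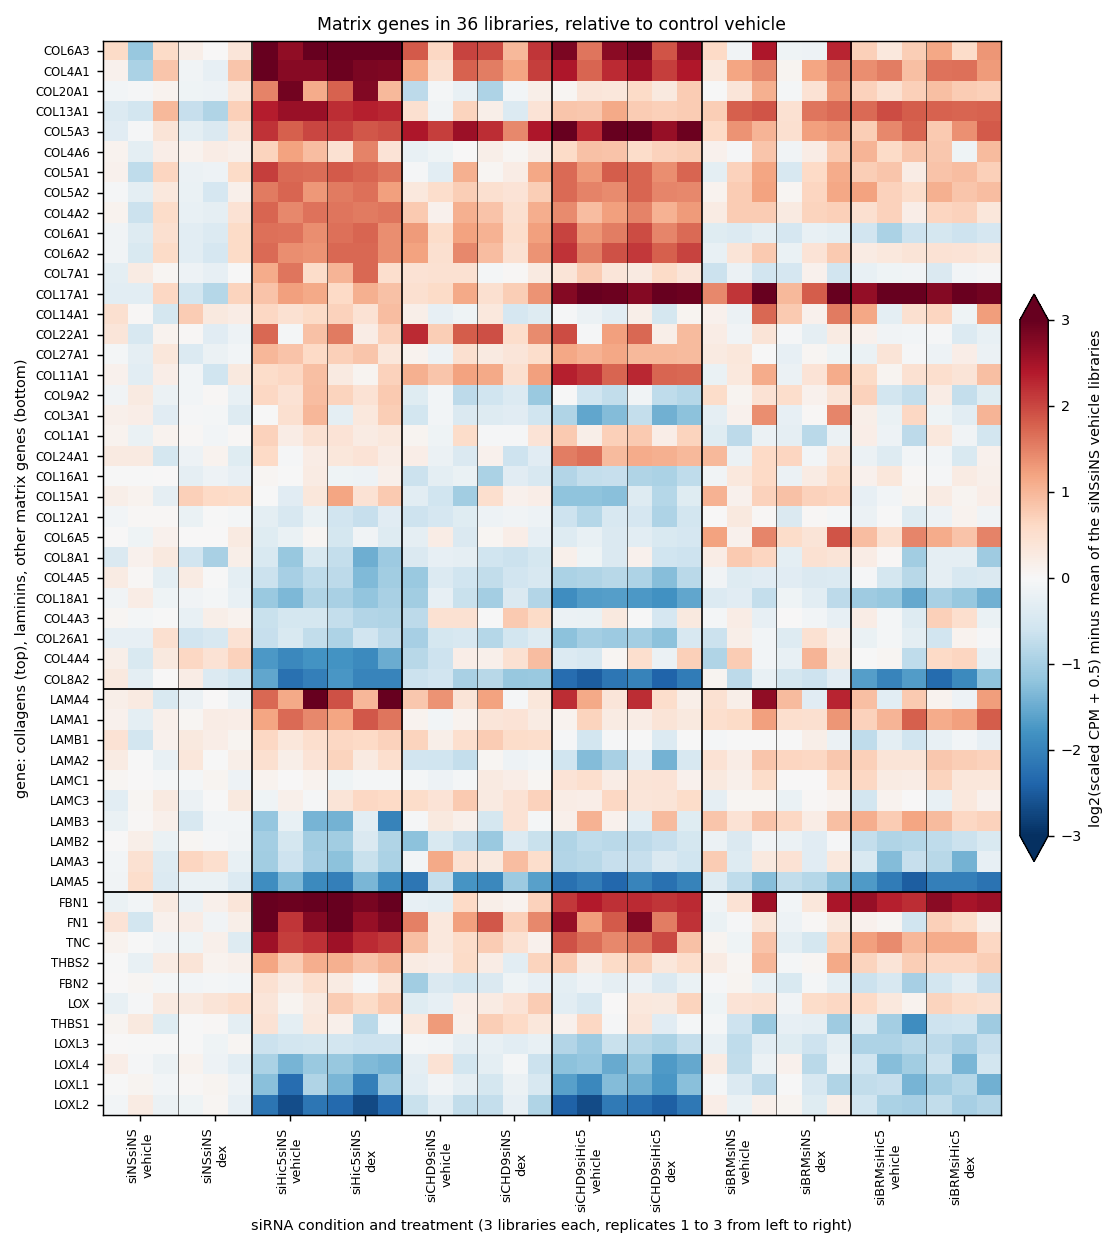
Level of 53 of the 54 genes (rows) in each of the 36 libraries (columns), as log2(scaled CPM + 0.5) minus the mean of the 3 siNSsiNS vehicle libraries, with colours limited at 3 in either direction. The siHic5siNS columns hold deep reds, among them FN1, COL4A1, COL6A3 and FBN1, as the siCHD9siHic5 and siBRMsiHic5 columns do for COL17A1, and blues for COL8A2, LOXL2 and LAMA5, and vehicle and dex columns of a condition look alike.

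Hic-5 depletion raised the share of all counts that fell on the 54 genes. In vehicle libraries it ran from 0.880 to 1.04% with siNSsiNS and from 1.66 to 2.38% with siHic5siNS, with no overlap. Abundant genes weigh most in such a share, so it does not describe each gene. FN1 had a mean of 886 scaled CPM in control vehicle libraries and reached 7118 with siHic5siNS, and COL6A3 had 154 and reached 1724. Of the 54 genes, 22 rose and 14 fell (edgeR quasi-likelihood, adjusted p under 0.05). Over all 15179 tested genes 53.1% were called, 26% higher and 27.2% lower, so the count of members that rose stands above the background share and the count that fell close to it. The median log2 change was 0.42 over the members and -0.01 over all genes. Among collagens 14 of 32 rose and 6 fell, among laminins 3 of 11 rose and 4 fell, and among the glycoproteins and LOX family 5 of 11 rose and 4 fell. All 4 that fell in the last group were LOX-like enzymes. Of the 36 calls, 28 were kept whichever of the 6 libraries was left out. Groups without overlap were common in this comparison: 40 of the 54 members and 61.2% of all genes had them. Summed mesenchymal markers lay above the controls here, at 1740 to 2012 against 1256 to 1559 scaled CPM, although 2 of the 4 rose and 1 fell. Endothelial markers lay below, at 8.41 to 11 against 12.1 to 14. Epithelial sums overlapped, at 31.1 to 69.5 against 38.0 to 46.6, with 2 of the 5 tested markers called higher and 0 lower. Fibroblast markers (4 of 5 in the table) summed to 38.5 to 48.4 against 46.9 to 84.9: DCN, LUM and PDGFRA fell and FAP rose (2.74 ± 0.37). The part of these markers in the result was not tested. In the vehicle libraries of the other 4 siRNA groups mesenchymal sums also lay above the control range, and endothelial sums lay below it with siCHD9siNS (7.50 to 7.83) and siCHD9siHic5 (3.15 to 4.39).

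Of the adhesive and microfibril glycoproteins, FN1, TNC and FBN1 rose several-fold while THBS1 did not pass the test. FN1 stood at 1138, 586 and 935 scaled CPM in the 3 control vehicle libraries and at 7118, 3797 and 5808 with siHic5siNS. Every siHic5siNS library lay above every control library, and the log2 change was 2.65 ± 0.36, adjusted p = 1.00e-06 (edgeR). TNC, the tenascin that modulates adhesion during tissue remodelling, stood at 128, 119 and 111 in controls and at 699, 499 and 549.6 with siHic5siNS. It rose by 2.29 ± 0.29, adjusted p = 3.39e-07. FBN1, the main fibrillin of microfibrils, was low in control cells, at 8.95, 9.84 and 12.7, and stood at 90.7, 83.4 and 87.3 with siHic5siNS (3.05 ± 0.52, adjusted p = 1.86e-05). The 3 control values and the 3 depleted values of TNC and of FBN1 were each close together and far apart from the other group. FBN2, the fibrillin of developing tissue, changed far less (0.41 ± 0.14, adjusted p = 0.0176), and its call was lost without siNSsiNS replicate 3 (0.38, adjusted p = 0.0564) or siHic5siNS replicate 3 (0.35, adjusted p = 0.0689). Of the thrombospondins, THBS2 rose from a level near 1 scaled CPM by 1.32 ± 0.35, adjusted p = 0.00260, whereas THBS1 changed by 0.16 ± 0.33 and did not pass the test (adjusted p = 0.711).

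**Figure D2:**
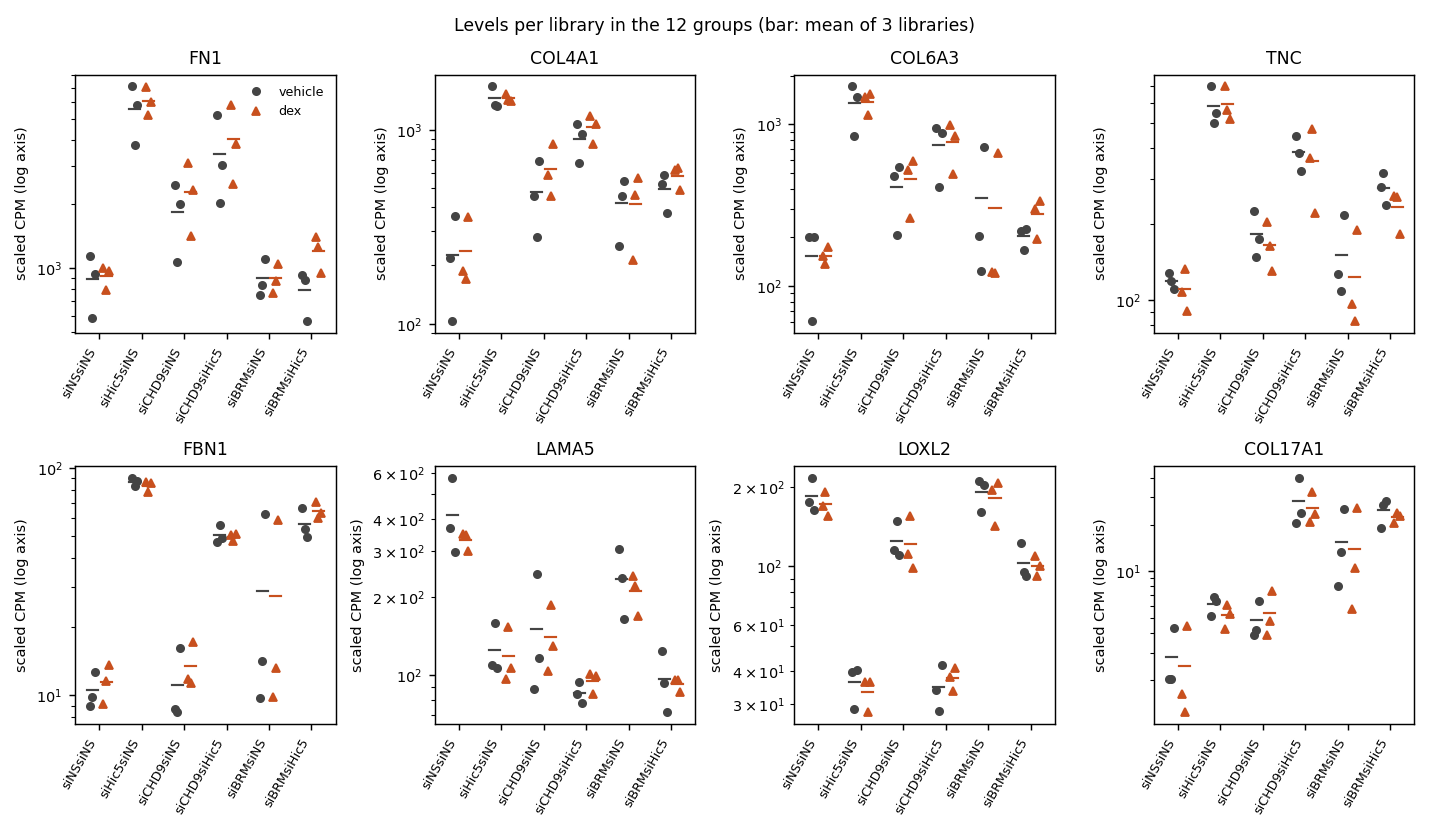
Scaled CPM on a log axis for FN1, COL4A1, COL6A3, TNC, FBN1, LAMA5, LOXL2 and COL17A1 in every library, by siRNA condition, with vehicle and dex side by side and a bar at the mean of 3 libraries. FN1 reaches 3797 to 7118 with siHic5siNS and vehicle, against 566 to 928 with siBRMsiHic5, and 1 siBRMsiNS library (replicate 3) stands above its group for COL6A3 and FBN1 at both treatments.

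Among basement membrane collagens, both chains of the ubiquitous alpha1(IV) and alpha2(IV) network rose. COL4A1 stood at 219, 103 and 359.7 scaled CPM in control vehicle libraries and at 1683, 1348 and 1338 with siHic5siNS (log2 2.68 ± 0.40, adjusted p = 3.22e-06, edgeR). COL4A2 stood at 705, 414 and 952 and at 2175, 1775 and 2018 (1.53 ± 0.25, adjusted p = 1.24e-05). The groups did not overlap for either chain. The chains of the tissue-restricted networks did not move one way. COL4A6, present at under 2 scaled CPM, rose by 1.78 ± 0.53. COL4A5 fell by 0.83 ± 0.19 and COL4A4 from 28.4, 18 and 30.6 to 7.24, 6.15 and 6.86 (-1.93 ± 0.37, adjusted p = 1.05e-04). COL4A3, the partner of COL4A4, had under 1 scaled CPM in these groups and changed by -1.22 ± 0.53 without passing the test (adjusted p = 0.0524). COL18A1, the precursor of endostatin, fell by 1.14 ± 0.19, and COL7A1, the anchoring fibril collagen, rose by 1.14 ± 0.24.

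The 3 collagen VI chains that make the common filament rose together. COL6A3 stood at 199.8, 60.8 and 200.3 scaled CPM in control vehicle libraries and at 1724, 852 and 1475 with siHic5siNS (log2 3.14 ± 0.62, adjusted p = 1.28e-04, edgeR). COL6A1 stood at 220.0, 181 and 330.4 and at 738, 737 and 623 (1.52 ± 0.24, adjusted p = 6.62e-06), and COL6A2 rose by 1.42 ± 0.30, adjusted p = 2.63e-04. No siHic5siNS library overlapped a control library for these 3 chains. Of the fibrillar chains, COL5A1 (1.72 ± 0.39), COL5A2 (1.53 ± 0.25), COL5A3 (2.12 ± 0.35) and COL27A1 (0.81 ± 0.17) rose. COL1A1, at 2165, 1763 and 2174 in controls and 3260, 2357 and 2780 with siHic5siNS, had groups that did not overlap but did not pass the test (0.46 ± 0.24, adjusted p = 0.104). COL3A1 (0.55 ± 0.42, adjusted p = 0.274) and COL11A1 (0.69 ± 0.30, adjusted p = 0.0512) did not pass either. The transmembrane collagen COL13A1 (2.38 ± 0.39, adjusted p = 1.22e-05) and COL20A1 (2.44 ± 0.51, adjusted p = 2.23e-04) rose. COL8A2, a short-chain collagen, had the largest fall of the 54 genes: it stood at 3.51, 2.20 and 2.79 in controls and at 0.614, 0.202 and 0.298 with siHic5siNS (-2.92 ± 0.43, adjusted p = 3.20e-06). COL17A1 (1.12), COL12A1 (-0.32) and COL26A1 (-1.24) were called as well, but COL17A1 was lost without siNSsiNS replicates 1 or 2 or siHic5siNS replicates 1, 2 or 3 (0.94 to 1.23), COL12A1 without siNSsiNS replicates 1, 2 or 3 or siHic5siNS replicates 1 or 2 (-0.36 to -0.24) and COL26A1 without siHic5siNS replicates 1 or 3 or siNSsiNS replicate 3 (-1.18 to -0.76).

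The laminin alpha chains, which carry the cell-binding domains, moved in opposite directions. LAMA5 fell from 370.4, 578 and 299 scaled CPM in control vehicle libraries to 109, 159 and 107 with siHic5siNS (log2 -1.73 ± 0.30, adjusted p = 2.40e-05, edgeR). LAMA1 rose from 181, 135 and 185 to 373, 537 and 448 (1.44 ± 0.25, adjusted p = 3.27e-05). Neither pair of groups overlapped. LAMB2, the beta 2 chain, fell by 0.86 ± 0.18, and the common gamma chain LAMC1 changed by 0.07 ± 0.13 (adjusted p = 0.661). LAMA4, with 0.401, 0.467 and 0.0847 in controls and 2.13, 1.24 and 10.4 with siHic5siNS, was called at 3.88 ± 1.17, adjusted p = 0.00661, but its level differed widely between the depleted libraries and the call was lost without siHic5siNS replicate 3 (2.43, adjusted p = 0.0944). The calls of 3 other chains were also lost when 1 library was left out: LAMB1 (0.44) without siHic5siNS replicates 1 or 3 or siNSsiNS replicates 2 or 3 (0.21 to 0.48), LAMB3 (-0.84) without siNSsiNS replicates 1, 2 or 3 or siHic5siNS replicates 1 or 3 (-0.93 to -0.62), and LAMA3 (-1.52) without siHic5siNS replicates 1 or 3 or siNSsiNS replicate 2 (-1.40 to -1.14). LAMA3 and LAMB3 are chains of an adhesive laminin of epithelia.

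The 4 LOX-like enzymes fell while LOX itself did not pass the test. LOXL2, which crosslinks collagen IV, stood at 176, 218 and 164 scaled CPM in control vehicle libraries and at 39.9, 28.6 and 40.4 with siHic5siNS (log2 -2.36 ± 0.19, adjusted p = 3.34e-10, edgeR), the smallest adjusted p of the 54 genes in this comparison. LOXL1, linked to elastic fibres, fell from 135, 144 and 128 to 56.8, 27.4 and 72.4 (-1.38 ± 0.28, adjusted p = 1.67e-04), and LOXL4 from 513, 439 and 395 to 231, 169 and 208 (-1.15 ± 0.27, adjusted p = 6.87e-04). LOXL3 fell from 13.7, 13.4 and 13.3 to 8.34, 8.94 and 9.14 (-0.61 ± 0.13, adjusted p = 4.41e-04). For all 4 enzymes each depleted library lay below each control library, in a comparison where 61.2% of all genes had groups without overlap. LOX stood at 37.3, 42.8 and 52.5 in controls and 56.6, 46.3 and 53.1 with siHic5siNS, and the groups overlapped (0.23 ± 0.19, adjusted p = 0.313).

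The members not called with siHic5siNS in vehicle libraries numbered 18. Among them were COL8A1, COL6A5, LAMC3, COL15A1, COL16A1, LAMA2, COL24A1, COL9A2, COL22A1 and COL14A1, with log2 changes from -0.74 ± 0.34 (COL8A1) to 1.03 ± 0.84 (COL14A1). COL16A1, which associates with fibrils, stood at 115, 115 and 117 scaled CPM in controls and 120.2, 114 and 138 with siHic5siNS, and COL9A2, a chain of the cartilage collagen IX, at 40.5, 52.6 and 38.5 and 66.6, 59 and 83.7. LAMA2, the laminin alpha chain of muscle, stood at 18.5, 15.4 and 13.3 and 21.9, 17.7 and 20.8, and LAMC3 at 19.2, 25.1 and 29.4 and 22, 26.9 and 23.8. COL14A1 and COL6A5 were under 1 scaled CPM in each of these libraries.

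The dex-treated libraries gave a second comparison of siHic5siNS with siNSsiNS, with no library in common with the first, although vehicle and dex libraries of 1 condition and replicate number deviated together (residual correlations of 0.404 to 0.905), so deviations of a replicate recur in both. There 23 members rose and 15 fell, against 25.2% and 28.5% of all genes (53.6% in either direction). Of the 40 members called in at least 1 of the treatments, 34 were called in both in the same direction, 20 up and 14 down, and 0 in opposite directions. Of all genes 59.4% were called in at least 1 treatment, 47.4% in both in the same direction and 0% in opposite directions. FN1 changed by 2.73 ± 0.36, adjusted p = 6.21e-07 (edgeR), COL6A3 by 3.17 ± 0.62, COL4A1 by 2.61 ± 0.40, FBN1 by 2.87 ± 0.51, TNC by 2.43 ± 0.29, LAMA5 by -1.48 ± 0.30 and LOXL2 by -2.36 ± 0.19. With dex, FN1 stood at 997, 788 and 969 scaled CPM in siNSsiNS and at 7043, 5239 and 6006 in siHic5siNS libraries.

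Single siRNA against CHD9 or BRM moved fewer members, and fewer of all genes. In vehicle libraries the share of members called lay close to that of all genes. It was 33.3% against 32.3% with siCHD9siNS and 5.56% against 6.45% with siBRMsiNS. The median log2 change with siCHD9siNS was 0.05 over the members and 0.02 over all genes. With siBRMsiNS it was 0.32 and 0.04, and 36 of the 54 members had a positive change, called or not, so few calls there do not mean that levels were unchanged. In vehicle libraries labelled siCHD9siNS, 9 members rose and 9 fell, against 15.8% and 16.5% of all genes (32.3% in either direction). COL5A3, a minor collagen V chain, stood at 2.37, 3.03 and 4.21 scaled CPM in controls and at 18.9, 14.8 and 21.1 with siCHD9siNS (log2 2.51 ± 0.35, adjusted p = 7.93e-06, edgeR). COL22A1, a collagen of tissue junctions, rose by 1.69 ± 0.46 and COL6A1 by 1.00 ± 0.23. LAMA5 fell to 88.8, 245 and 116 (-1.47 ± 0.30, adjusted p = 4.46e-04), and LAMB2 (-0.78 ± 0.18), FBN2 (-0.66 ± 0.14) and COL12A1 (-0.50 ± 0.13) were lower. These 7 calls were kept without any 1 of the 6 libraries. FN1, at 2443, 1070 and 1990 with siCHD9siNS, was called at 1.05 ± 0.34, adjusted p = 0.0207, but not without siCHD9siNS replicate 1 (0.79, adjusted p = 0.132), siNSsiNS replicate 2 (0.82, adjusted p = 0.119) or siCHD9siNS replicate 3 (0.99, adjusted p = 0.0582). COL4A1 (1.07 ± 0.38) and COL4A2 (0.63 ± 0.25) were lost without siNSsiNS replicates 1 or 2 or siCHD9siNS replicates 1 or 3 (0.70 to 1.10) and siNSsiNS replicates 1 or 2 or siCHD9siNS replicates 1 or 3 (0.37 to 0.65) respectively. Leaving out siNSsiNS replicate 2 or siCHD9siNS replicate 3 reduced the count from 18 to 10 in each case. With dex, 10 members rose and 4 fell in siCHD9siNS, against 7.96% and 10.7% of all genes (18.7% in either direction). Of the 20 members called at either treatment, 12 were called at both in the same direction (34.9% and 16% of all genes): COL4A1, COL4A2, COL5A3, COL6A1, COL6A2, COL11A1, COL22A1 and FN1 up, and COL4A5, COL18A1, LAMA5 and LAMB2 down. The count with dex was 7, 5, 5 and 7 without siNSsiNS replicate 1, siCHD9siNS replicate 1, siNSsiNS replicate 2 and siCHD9siNS replicate 3.

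In siBRMsiNS vehicle libraries 2 members rose and 1 fell, against 4.26% and 2.19% of all genes (6.45% in either direction). DESeq2 called 8 members, but its share of all genes was not counted, so these shares are not its background. COL17A1, a transmembrane collagen of epithelial anchoring junctions, stood at 2.04, 2.03 and 4.35 scaled CPM in controls and at 8.07, 13.4 and 25.3 with siBRMsiNS (log2 2.46 ± 0.48, adjusted p = 0.00737, edgeR). COL13A1 (1.41 ± 0.38) and LOXL3 (-0.43 ± 0.13) were also called. None of the 3 calls was kept throughout: COL17A1 was lost without siNSsiNS replicates 1 or 2 or siBRMsiNS replicate 3 (1.93 to 2.28), COL13A1 without siNSsiNS replicates 1 or 2 or siBRMsiNS replicates 2 or 3 (1.14 to 1.27) and LOXL3 without siNSsiNS replicates 1, 2 or 3 or siBRMsiNS replicates 2 or 3 (-0.49 to -0.28). The count was 0 without siNSsiNS replicate 1, siNSsiNS replicate 2 or siBRMsiNS replicate 3, and 9, 5 and 7 without siBRMsiNS replicate 1, siBRMsiNS replicate 2 or siNSsiNS replicate 3. The siBRMsiNS replicate 3 stood apart for several members: COL6A3 read 204, 124 and 727 in the 3 siBRMsiNS vehicle libraries and 122, 120.5 and 663 in their dex partners, and FBN1 read 9.69, 14.2 and 62.6 and 9.86, 13.2 and 58.8. In that replicate both genes lay far above the other siBRMsiNS libraries at both treatments. Summed fibroblast markers (4 of 5 in the table) ran from 37.4 to 123 scaled CPM in the siBRMsiNS vehicle libraries and from 46.9 to 84.9 in controls, and their part in these values was not tested. With dex, 5 members rose and 1 fell in siBRMsiNS, against 7.06% and 4.77% of all genes (11.8% in either direction), with 1, 11, 1 and 1 called without siNSsiNS replicate 1, siBRMsiNS replicate 1, siNSsiNS replicate 2 and siBRMsiNS replicate 3.

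The siRNA against Hic-5 had a different outcome for matrix genes where BRM had been depleted as well. Comparing siBRMsiHic5 with siBRMsiNS in vehicle libraries, 1 member rose and 12 fell, against 8.81% and 13.5% of all genes (22.4% in either direction). FN1 stood at 748, 835 and 1109 scaled CPM with siBRMsiNS and at 928, 885 and 566 with siBRMsiHic5, where the groups overlapped (log2 -0.18 ± 0.34, adjusted p = 0.741, edgeR). COL4A1 stood at 252, 458 and 546 and 529, 584 and 374 (0.24 ± 0.37, adjusted p = 0.675). COL6A1 stood at 183, 178 and 192 and 158, 123 and 153, the opposite order to that seen without BRM siRNA (-0.35 ± 0.23, adjusted p = 0.286). COL6A3 (-0.79 ± 0.57, adjusted p = 0.337) and COL4A2 (-0.13 ± 0.24, adjusted p = 0.730) did not pass the test either. The only member that rose was TNC (0.88 ± 0.28, adjusted p = 0.0237), and its call was lost without siBRMsiNS replicates 1 or 2 or siBRMsiHic5 replicates 1 or 2 (0.70 to 0.88). COL8A2 (-2.24 ± 0.42), LAMA5 (-1.29 ± 0.29), LOXL2 (-0.90 ± 0.18), COL18A1 (-0.78 ± 0.19) and FBN2 (-0.64 ± 0.14) fell in every leave-one-out fit. The count was 5 without siBRMsiNS replicate 1, 8 without siBRMsiHic5 replicate 2, and 5 without the libraries over 3% 28S rRNA.

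The difference between the Hic-5 effects with and without BRM siRNA was tested directly as an interaction. In vehicle libraries 20 members differed, 18 with a lower effect and 2 with a higher one, against 11.3% and 9.68% of all genes (21% in either direction). The median difference was -0.83 over the members and -0.05 over all genes. Of the 22 members that rose with siHic5siNS, 18 had a lower effect with BRM siRNA, against 36.7% of all 3940 genes that rose. The choice of these members used libraries that also enter the interaction, so these shares are a description. Of the 18, FBN2 and LAMB1 changed sign and were called lower in the BRM background. FN1 differed by -2.83 ± 0.49, adjusted p = 2.05e-04 on the log2 scale (edgeR), COL6A3 by -3.92 ± 0.84, adjusted p = 0.00150 and COL4A1 by -2.44 ± 0.54, adjusted p = 0.00199. COL6A1 (-1.87 ± 0.33, adjusted p = 2.51e-04), COL6A2 (-1.47 ± 0.42), COL4A2 (-1.66 ± 0.35), COL5A2 (-1.45 ± 0.34), COL5A3 (-1.74 ± 0.48) and COL13A1 (-2.10 ± 0.53) differed in the same direction, and so did LAMB1 (-0.96 ± 0.25), FBN2 (-1.05 ± 0.20) and COL27A1 (-0.94 ± 0.25). LOXL2 differed upward (1.46 ± 0.26, adjusted p = 2.82e-04): its fall was smaller with BRM siRNA. The calls of these 13 members were kept whichever of the 12 libraries was left out. FBN1 (-2.08 ± 0.68) was among the calls that were lost, without siNSsiNS replicates 1 or 2, siBRMsiHic5 replicates 2 or 3 or siBRMsiNS replicate 3 (-2.05 to -0.81). Without the 10 libraries over 3% 28S rRNA, which leaves 1 vehicle library each for siBRMsiNS and siBRMsiHic5, 6 members were called. FN1 then differed by -2.35 (adjusted p = 0.0854), COL6A1 by -2.09 (adjusted p = 0.0213) and LOXL2 by 1.74 (adjusted p = 0.0145), with the lone libraries assumed to vary like the other groups.

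In the dex-treated libraries, the partners of the vehicle libraries by replicate, 15 members had a lower and 5 a higher Hic-5 effect with BRM siRNA, against 8.86% and 9.89% of all genes (18.7% in either direction), and 15 members were called at both treatments (13.5% of all genes). FN1 differed by -2.31 ± 0.49, adjusted p = 0.00171 (edgeR), COL4A1 by -2.12 ± 0.53, COL6A1 by -1.82 ± 0.33, TNC by -1.51 ± 0.39 and LOXL2 by 1.51 ± 0.26. COL4A3 (3.01 ± 0.74), COL4A4 (2.31 ± 0.51) and COL4A5 (1.08 ± 0.27) differed upward, while COL4A6, the other chain of the restricted collagen IV networks, did not pass the test (-0.88 ± 0.71, adjusted p = 0.417). These 8 calls were kept in every leave-one-out fit. The count with dex was 10 without the libraries over 3% 28S rRNA, which leaves 1 siBRMsiHic5 dex library.

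**Figure D3:**
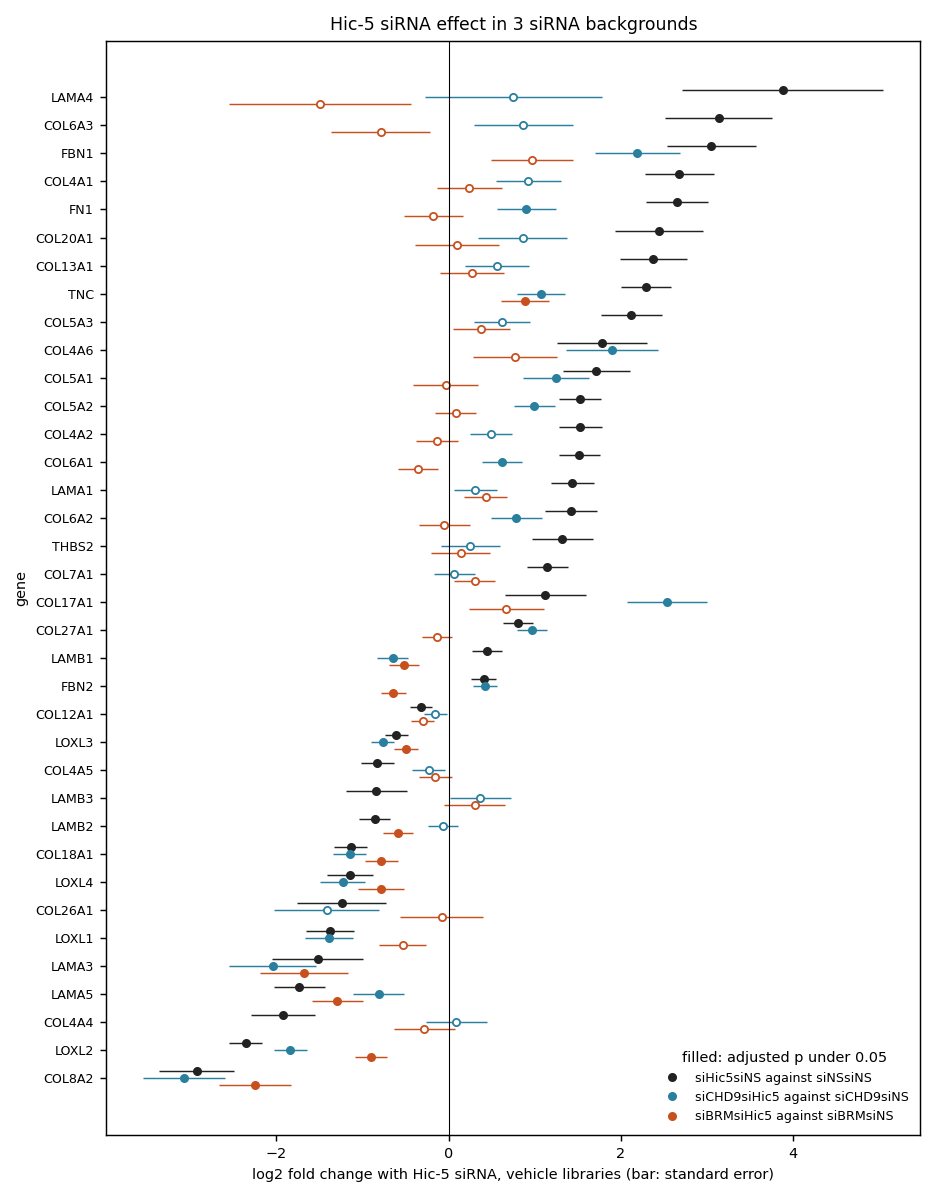
Log2 change with siRNA against Hic-5 (x axis, ± standard error) for the 36 members called with siHic5siNS in vehicle libraries (y axis), in the control, CHD9 siRNA and BRM siRNA backgrounds; filled points had an adjusted p under 0.05 (edgeR). In the BRM background most members that rose in the control background sit near 0, FN1 at -0.18 and COL4A1 at 0.24 against 2.65 and 2.68, while COL8A2, LAMA5 and LOXL2 stay on the lower side. In the CHD9 siRNA background, CHD9 transcript was lower than control with siCHD9siNS but higher in the libraries labelled siCHD9siHic5.

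In the CHD9 siRNA background the Hic-5 siRNA moved more members than in the BRM siRNA background, and more of all genes. As given above, CHD9 transcript was lower than control with siCHD9siNS but higher in the libraries labelled siCHD9siHic5. The part of CHD9 in this comparison was not tested. Comparing the vehicle libraries labelled siCHD9siHic5 with siCHD9siNS, 14 members rose and 11 fell, against 14.9% and 21.9% of all genes (36.8% in either direction). FBN1 stood at 8.67, 8.41 and 16.1 scaled CPM with siCHD9siNS and at 47, 56 and 49.3 with siCHD9siHic5 (log2 2.19 ± 0.50, adjusted p = 0.00111, edgeR). COL17A1 stood at 3.91, 4.17 and 6.43 and 20.7, 40.2 and 23.7 (2.54 ± 0.47, adjusted p = 1.27e-04). TNC (1.08 ± 0.28), COL11A1 (1.06 ± 0.30), COL5A2 (1.00 ± 0.24) and COL24A1 (2.05 ± 0.39) rose as well. COL8A2 (-3.07 ± 0.47), LAMA3 (-2.04 ± 0.51) and the 4 LOX-like genes LOXL1 (-1.39), LOXL2 (-1.84), LOXL3 (-0.77) and LOXL4 (-1.23) fell. These calls were kept without any 1 library. FN1 stood at 2443, 1070 and 1990 and 5225, 2024 and 3041, overlapping, and its rise of 0.90 ± 0.34, adjusted p = 0.0396 was lost without siCHD9siHic5 replicate 1 (0.47, adjusted p = 0.338), siCHD9siNS replicate 2 (0.63, adjusted p = 0.202) or siCHD9siNS replicate 3 (0.97, adjusted p = 0.0634).

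As an interaction, the Hic-5 effect with CHD9 siRNA was lower than that without it for 10 members and higher for 3, against 11.9% and 9.34% of all genes (21.3% in either direction). The libraries labelled siCHD9siHic5 enter this contrast, so a Hic-5 effect and a difference in CHD9 transcript cannot be told apart in it. The median difference was -0.48 over the members and -0.07 over all genes. Of the 22 members that rose with siHic5siNS, 10 had a lower effect, against 34.4% of all genes that rose, again with libraries in common. Of the 10, LAMB1 changed sign and was called lower in the CHD9 background. With the replicate block 21 members differed (27.1% of all genes). FN1 (-1.75 ± 0.49, adjusted p = 0.0108, edgeR) and LAMB1 (-1.09 ± 0.25, adjusted p = 0.00241) were lower and COL4A4 (2.02 ± 0.51, adjusted p = 0.00586) higher in every leave-one-out fit. COL4A4 stood at 13.9, 16 and 28.9 with siCHD9siNS and 18.7, 17.8 and 26.2 with siCHD9siHic5, and its Hic-5 effect was 0.09 ± 0.35 there (adjusted p = 0.864) against -1.93 ± 0.37 in the control background. The other 10 calls, COL4A1, COL4A2, COL5A3, COL6A3, COL7A1, COL13A1, COL24A1, LAMA1, LAMB2 and TNC, were each lost without at least 1 of the 12 libraries, and the count was 8, 4 and 8 without siNSsiNS replicate 1, siNSsiNS replicate 2 and siCHD9siHic5 replicate 2. With dex, 11 members were lower and 2 higher, against 9.01% and 8.06% of all genes (17.1% in either direction), and 11 were called at both treatments (13.7% of all genes). There FN1 (-1.91 ± 0.49), COL4A1 (-1.89 ± 0.53), LAMA1 (-1.45 ± 0.35), LAMB1 (-1.19 ± 0.25) and COL4A4 (2.24 ± 0.51) were called in every leave-one-out fit. The count with dex was 7 without siNSsiNS replicate 2 and 8 without any 1 of siNSsiNS replicate 1, siHic5siNS replicate 1, siCHD9siNS replicate 1 and siCHD9siNS replicate 3.

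Set over the 3 backgrounds, which share no libraries, 41 members were called for Hic-5 siRNA in at least 1 vehicle comparison and 8 in all 3 in the same direction, against 69.8% and 6.77% of all genes. TNC was the 1 that rose in all 3, and COL8A2, COL18A1, LAMA3, LAMA5, LOXL2, LOXL3 and LOXL4 fell in all 3 (4.22% of all genes). COL24A1, FBN2 and LAMB1 were called in opposite directions in different backgrounds (4.42% of all genes). In the CHD9 background the groups compared also differed in CHD9 transcript. LAMB1, the common laminin beta chain, had log2 changes of 0.44 ± 0.18, -0.65 ± 0.18 and -0.52 ± 0.18 in the control, CHD9 and BRM backgrounds. In the control background its call was lost without siHic5siNS replicates 1 or 3 or siNSsiNS replicates 2 or 3 (0.21 to 0.48), and in the BRM background without siBRMsiNS replicates 1 or 2 or siBRMsiHic5 replicates 1 or 3 (-0.53 to -0.42). Of the 14 members that fell with siHic5siNS, COL4A4 and LOXL2 had a higher Hic-5 effect with BRM siRNA, and COL4A4 and LAMB2 with CHD9 siRNA, against 32.5% and 25.4% of all genes that fell. The siHic5siNS and siNSsiNS libraries that chose these members enter both interactions, so the shares are a description and the COL4A4 results are not independent.

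The combined siRNA groups were also set against siHic5siNS. In siBRMsiHic5 vehicle libraries 5 members were higher and 18 lower, against 25.2% and 24.2% of all genes (49.4% in either direction). FN1, at 928, 885 and 566 scaled CPM against 7118, 3797 and 5808, differed by -2.81 ± 0.37, adjusted p = 5.18e-07 (log2, edgeR). COL6A3 (-2.73 ± 0.61), COL6A1 (-2.28 ± 0.24), COL4A1 (-1.56 ± 0.38), COL4A2 (-1.14 ± 0.25), COL7A1 (-1.31 ± 0.24), THBS1 (-1.16 ± 0.34) and TNC (-1.07 ± 0.28) were lower. THBS1 read 537, 344 and 193 in siBRMsiHic5 and 743, 862 and 543 in control vehicle libraries. LOXL2 (1.51 ± 0.19), COL4A4 (1.69 ± 0.37), LAMB3 (1.85 ± 0.36), COL17A1 (2.01 ± 0.46) and COL6A5 (2.44 ± 0.65) were higher, and all these calls were kept in every leave-one-out fit. The summed share of counts on the 54 genes was 0.778 to 1.01% in siBRMsiHic5, overlapping the control range of 0.880 to 1.04%, and 0.920 to 1.13% in siBRMsiNS.

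In the vehicle libraries labelled siCHD9siHic5, 6 members were higher and 15 lower than with siHic5siNS, against 21.9% and 25.7% of all genes (47.7% in either direction). FN1 differed by -0.70 ± 0.34, adjusted p = 0.0929 (edgeR) and COL4A1 by -0.69 ± 0.38, adjusted p = 0.133. COL15A1 (-2.21 ± 0.34, adjusted p = 6.34e-06), COL20A1 (-2.08 ± 0.49), COL3A1 (-1.87 ± 0.44), COL13A1 (-1.60 ± 0.38) and the muscle laminin chain LAMA2 (-1.35 ± 0.21) were lower. COL17A1 (2.20 ± 0.46, adjusted p = 2.72e-04), COL24A1 (1.43 ± 0.38), COL11A1 (1.40 ± 0.30), LAMB3 (1.34 ± 0.36) and COL4A4 (1.63 ± 0.37) were higher. COL11A1, a fibrillar chain of cartilage, read 534, 475 and 355 scaled CPM in siCHD9siHic5 libraries and 115, 84 and 122 in control vehicle libraries, without overlap. Between these 2 groups 62.2% of all genes had no overlap. The share of counts on the 54 genes was 1.29 to 1.97% here and 1.03 to 1.33% in siCHD9siNS.

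Against the siNSsiNS control, siCHD9siHic5 had 19 members higher and 17 lower in vehicle libraries, against 23.7% and 28.9% of all genes (52.6% in either direction), and siBRMsiHic5 had 13 higher and 13 lower, against 24.4% and 24.6% (48.9%). With dex the splits were 18 and 17 (background 22.3% and 29.2%, 51.5% in either direction) and 12 and 11 (background 22.4% and 23.1%, 45.5%). These comparisons share their control libraries with those above, so only the values are set side by side. COL17A1 had log2 changes of 3.32 ± 0.49 with siCHD9siHic5 and 3.13 ± 0.49 with siBRMsiHic5, and read 20.7, 40.2 and 23.7 and 19, 26.9 and 28.6 scaled CPM. COL6A1 had 1.62 ± 0.24 and -0.76 ± 0.23, of which the second was lost without siNSsiNS replicate 3 (-0.47, adjusted p = 0.108). FN1 had 1.95 ± 0.35, adjusted p = 4.26e-05 with siCHD9siHic5, and -0.16 ± 0.34, adjusted p = 0.718 with siBRMsiHic5 (edgeR).

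Several members lie beside each other in the genome (GRCh38, positions from RefSeq and strands from GENCODE v29). COL4A1 (chr13:110148963-110307157, minus strand) and COL4A2 (chr13:110307284-110513209, plus strand) start 127 bases apart in opposite directions, and their promoter windows overlap by 226 bases, the last part of the region printed above for COL4A2. COL4A4 and COL4A3 start 136 bases apart on chromosome 2 and COL4A6 and COL4A5 start 380 bases apart on chromosome X. COL6A1 and COL6A2 lie 93063 bases apart on chromosome 21, in the same orientation. With siHic5siNS and vehicle, COL4A1 (2.68 ± 0.40) and COL4A2 (1.53 ± 0.25) rose together, as did COL6A1 (1.52 ± 0.24) and COL6A2 (1.42 ± 0.30). COL4A6 (1.78 ± 0.53) and COL4A5 (-0.83 ± 0.19) went in opposite directions. COL6A3, whose product joins those of COL6A1 and COL6A2, lies on another chromosome (chr2:237324018-237414164).

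**Figure D4:**
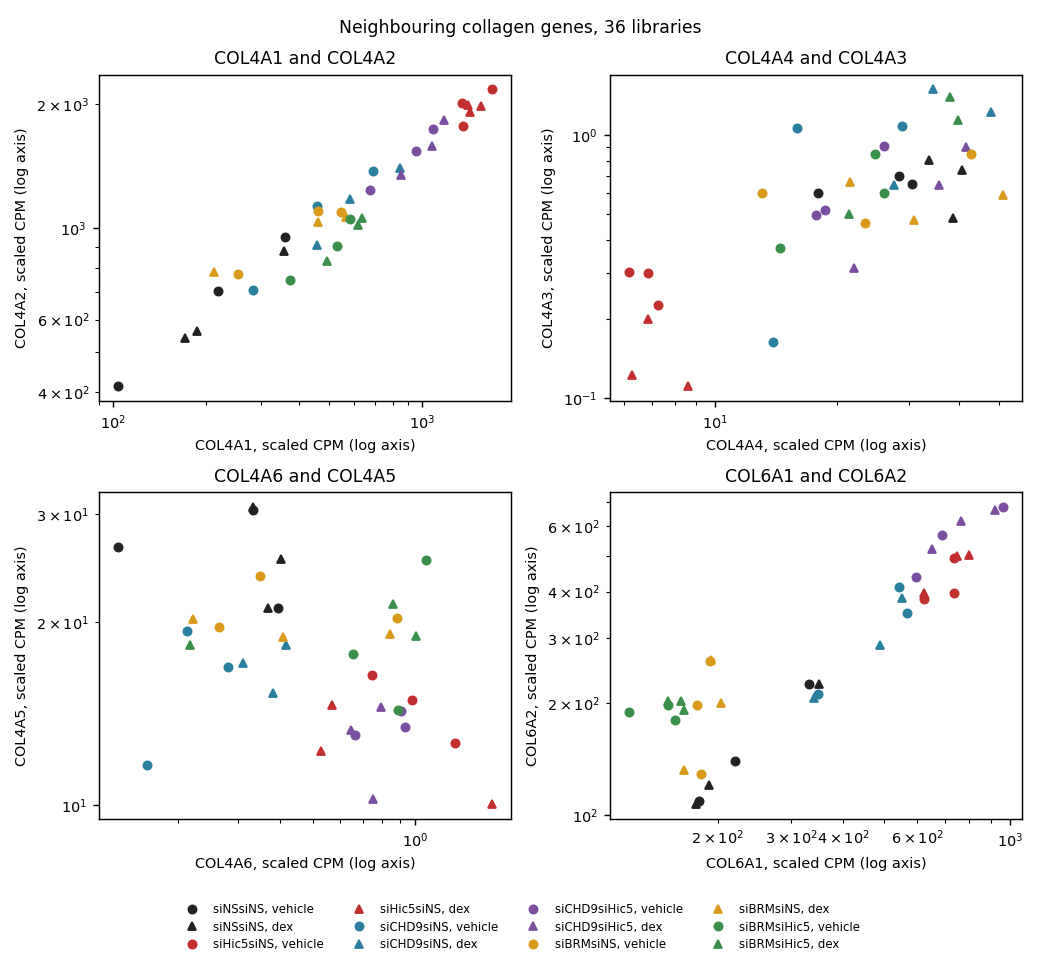
Scaled CPM of 2 neighbouring genes against each other on log axes in all 36 libraries, for COL4A1 and COL4A2, COL4A4 and COL4A3, COL4A6 and COL4A5, and COL6A1 and COL6A2; colours give the siRNA condition. Libraries with high COL4A1 also have high COL4A2, and likewise for COL6A1 and COL6A2, whereas the siHic5siNS libraries lie toward the high end for COL4A6 and the low end for COL4A5.

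Responses of matrix genes to dex were small beside those to the Hic-5 siRNA. Without regard to the pairing of vehicle and dex libraries, 0 members were called with siNSsiNS, siHic5siNS, siBRMsiNS, siCHD9siHic5 or siBRMsiHic5 (edgeR; 1, 3, 0, 2 and 1 at an unadjusted p under 0.05), against 0.343%, 0.876%, 0.382%, 0.455% and 0.501% of all genes. With siCHD9siNS 1 member was called (background 0.949%), namely COL15A1 (1.33 ± 0.31, adjusted p = 0.0259), and it was lost without the dex library of replicate 1 or 3 or the vehicle library of replicate 2 or 3 (1.04 to 1.39, adjusted p = 0.0598 to 0.158). Since libraries of the same condition and replicate number proved to be paired, the fit with a term for each pair (replicate block) is used below. It called 4 members with siNSsiNS, 6 with siHic5siNS, 16 with siCHD9siNS, 2 with siBRMsiNS, 3 with siCHD9siHic5 and 3 with siBRMsiHic5. The shares of all genes were 2.5%, 8.93%, 24.1%, 3.91%, 4.74% and 5.95%. In all, 18 of the 54 genes were called in at least 1 condition, against 32.2% of all genes. Leaving out pair 1, 2 or 3 gave 2, 1 and 2 members with siNSsiNS, 3 in each case with siHic5siNS, and 0, 0 and 1 with siBRMsiNS. Leaving out pair 1 gave 7 members with siCHD9siNS, 1 with siCHD9siHic5 and 5 with siBRMsiHic5.

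LOX, the lysyl oxidase that crosslinks collagen and elastin, was higher with dex in 18 of 18 pairs. It stood at 37.3, 42.8 and 52.5 scaled CPM with siNSsiNS and vehicle and at 52.8, 57.7 and 62.7 with dex. With siHic5siNS it stood at 56.6, 46.3 and 53.1 and 74.1, 65.4 and 75.3. The vehicle and dex groups did not overlap in either condition, as was so for 8.16% and 10.9% of all genes respectively. With the replicate block the log2 responses were 0.39 ± 0.06, adjusted p = 6.58e-04 with siNSsiNS, 0.46 ± 0.06 with siHic5siNS, 0.62 ± 0.06 with siCHD9siNS and 0.69 ± 0.06 with siCHD9siHic5 (edgeR). With siBRMsiHic5 the response was 0.23 ± 0.06, adjusted p = 0.0228, lost without pair 2 or pair 3 (0.23 and 0.16), and with siBRMsiNS it was 0.11 ± 0.06 and did not pass the test (adjusted p = 0.287). The difference between siBRMsiNS and siNSsiNS in the LOX response was -0.28 ± 0.08 and was not called (adjusted p = 0.901).

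COL4A4 was higher with dex in 17 of 18 pairs. It was called with 5 conditions and not with siHic5siNS (0.10 ± 0.14, adjusted p = 0.724, with the block), where its level was also lowest. The difference between siHic5siNS and siNSsiNS in the COL4A4 response was not called, with or without the block. The response was 0.93 ± 0.11 with siCHD9siNS and 0.59 ± 0.11 with siBRMsiHic5, both kept without any 1 pair. With siNSsiNS it was 0.58 ± 0.11, adjusted p = 0.00720, lost without siNSsiNS replicate 2 (0.43, adjusted p = 0.130). COL4A4 stood at 13.9, 16 and 28.9 scaled CPM with siCHD9siNS and vehicle and at 27.6, 34.4 and 47.8 with dex. FN1 was higher with dex in 15 of 18 pairs. With siBRMsiHic5 it stood at 928, 885 and 566 with vehicle and 1397, 1254 and 951 with dex, and the blocked response was 0.61 ± 0.09, adjusted p = 4.31e-04 (edgeR). LAMC3, a laminin gamma chain, responded with siHic5siNS (0.54 ± 0.07, adjusted p = 4.40e-05), and LAMA2 with siCHD9siNS (0.61 ± 0.11, adjusted p = 8.57e-04). COL15A1 rose with siCHD9siNS by 1.37 ± 0.25, adjusted p = 0.00103 at a level under 3 scaled CPM. These were kept without any 1 pair. COL8A1 was higher with dex in 0 of 18 pairs, with blocked log2 responses of -0.47 with siNSsiNS and -0.48 with siHic5siNS that did not pass the test (adjusted p = 0.180 and 0.117). COL13A1 and COL16A1 were higher in 1 of 18 pairs each. COL13A1 was called with siNSsiNS (-0.29 ± 0.07), siHic5siNS (-0.25 ± 0.06) and siCHD9siNS (-0.30 ± 0.07), and these calls were lost without siNSsiNS replicates 1, 2 or 3 (-0.33 to -0.26), siHic5siNS replicates 2 or 3 (-0.24 to -0.22) and siCHD9siNS replicate 1 (-0.29).

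**Figure D5:**
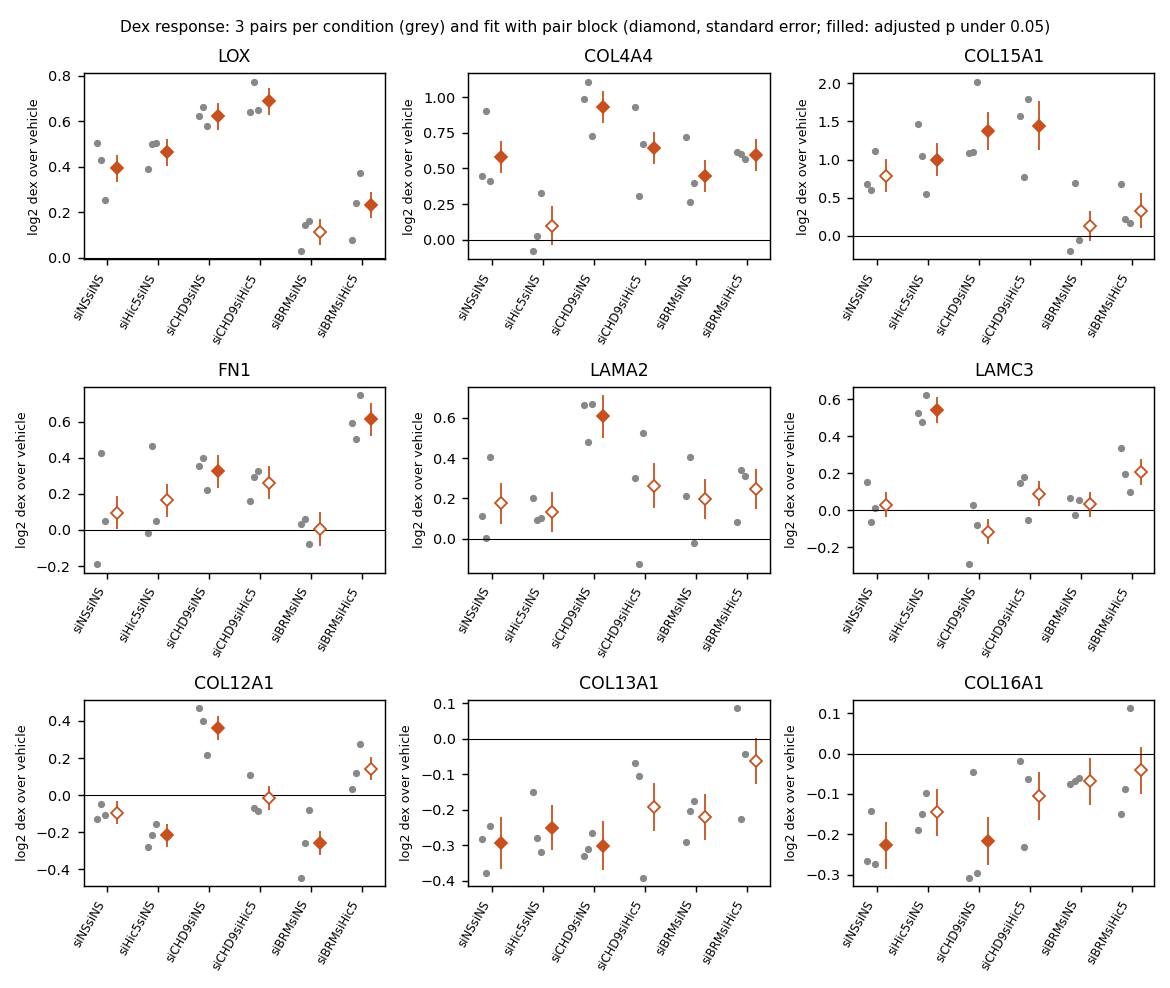
Log2 ratio of dex to vehicle for each pair of libraries (grey points) and the fitted response with its standard error (diamonds, fit with the replicate block) for LOX, COL4A4, COL15A1, FN1, LAMA2, LAMC3, COL12A1, COL13A1 and COL16A1 in the 6 siRNA conditions. All 18 grey points of LOX lie above 0, those of COL13A1 and COL16A1 lie below 0 but for 1 each, and COL12A1 has both signs.

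Differences in the dex response from siNSsiNS were called for 0 members in any condition without the block (edgeR; 1, 2, 0, 0 and 0 at an unadjusted p under 0.05 for siHic5siNS, siCHD9siNS, siBRMsiNS, siCHD9siHic5 and siBRMsiHic5; background 0%, 0.00659%, 0%, 0% and 0%). With the replicate block LAMC3 differed with siHic5siNS (0.51 ± 0.10, adjusted p = 0.0330; 0.184% of all genes). COL12A1 (0.45 ± 0.09, adjusted p = 0.0166), FBN2 (0.48 ± 0.11, adjusted p = 0.0261) and LAMC1 (0.30 ± 0.08, adjusted p = 0.0347) differed with siCHD9siNS, where 4.03% of all genes were called. These blocked differences, that of LAMC3 included, were not refitted with a pair left out. COL12A1, which joins fibrils to other matrix, had blocked responses of -0.09 ± 0.06 with siNSsiNS and 0.36 ± 0.06 with siCHD9siNS. The differences with siBRMsiNS, siCHD9siHic5 and siBRMsiHic5 were called for 0 members with the block as well (background 0%, 0.0132% and 0%).

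Genes that act on these proteins were counted from lists of textbook members. Of 18 tested genes for collagen folding and modification, 12 rose and 4 fell with siHic5siNS in vehicle libraries, with a median log2 change of 0.59 over the list and -0.01 over all genes. In this comparison 26% of all genes rose and 27.2% fell, which is the background for every list count in this paragraph. P3H1, a prolyl 3-hydroxylase (1.48 ± 0.14), the lysyl hydroxylase PLOD1 (1.39 ± 0.17), the prolyl 4-hydroxylase subunit P4HB (1.14 ± 0.25) and the collagen chaperone SERPINH1 (0.81 ± 0.15) rose, and the collagen galactosyltransferase COLGALT1 fell (-0.90 ± 0.14). Of 12 genes for procollagen secretion and cleavage 4 rose and 4 fell, with ADAMTS14 (2.89 ± 0.61) and ADAMTS3 (-2.09 ± 0.28), which both cleave procollagen, in opposite directions. Of 11 basement membrane partners 3 rose, namely NID1, which links laminin to collagen IV (2.33 ± 0.27), SMOC1 (2.08 ± 0.36) and PXDN, which crosslinks collagen IV (0.92 ± 0.20), and 3 fell. Of 14 elastic fibre and microfibril proteins 2 rose and 4 fell, of 14 other matricellular proteins 3 and 3, of 11 matrix proteoglycans 3 and 5, and of 12 collagen and laminin receptors 3 and 4. LTBP1, which binds fibrillin (2.82 ± 0.25), and ITGB1, the shared beta chain of collagen and laminin receptors (0.99 ± 0.15), rose, and the small proteoglycan DCN fell (-4.78 ± 0.75).

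The same lists were counted for the interaction with BRM siRNA in vehicle libraries. The Hic-5 effect was lower for 4 of the 11 basement membrane partners and higher for 0, and lower for 4 of 18 folding genes and higher for 1. Of all genes 11.3% were lower and 9.68% higher. NID1, read at 113, 145 and 99.8 scaled CPM with siNSsiNS, 476, 799 and 519 with siHic5siNS, 145, 93.2 and 172 with siBRMsiNS and 126, 95.2 and 172 with siBRMsiHic5, differed by -2.39 ± 0.37, adjusted p = 5.77e-05 (edgeR). Its siHic5siNS libraries stood alone at the high end. SMOC1 (-2.59 ± 0.51), PXDN (-1.48 ± 0.28), LTBP1 (-2.59 ± 0.34), P3H1 (-1.05 ± 0.20) and PLOD1 (-1.26 ± 0.24) differed in the same direction as FN1 and COL4A1. With siCHD9siNS alone, 6 of 14 matricellular proteins and 4 of 12 receptors fell and 0 of either list rose, against 16.5% and 15.8% of all genes. With the replicate block 7 and 5 fell and 0 and 1 rose, against 19.1% of all genes in each direction. Of the basement membrane partners 3 rose and 4 fell, among them HSPG2, the proteoglycan perlecan (-1.03 ± 0.18).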

How the data were processed

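The 36 RNA-seq libraries are described in the report. Reads were mapped with TopHat2 2.1.1 to GRCh38 and edgeR was used by the authors, per the notes on processing from the submitters. For the counting step, its strand setting and the annotation, the program is not given in the sources used here. Raw counts per gene make up the deposited table: its name speaks of upper-quartile CPM, but every value is a whole number and totals run from 27.4 to 47.1 M. Antisense and overlapping genes may share reads. Columns of other series numbered 0, and 30 genes carried no symbol. No replicate pair was a copy (lowest chi-square per degree of freedom 9.59).

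From these counts, edgeR 4.0.16 quasi-likelihood tests (R 4.3.3) were run with upper-quartile factors on all 36 libraries and 12 group means (24 residual degrees of freedom). The filter was a scaled CPM over 1 in at least 3 libraries, which left out 7 genes. P-values were adjusted by Benjamini-Hochberg over the 15179 tested genes and called under 0.05. There were 29 comparisons. Replicates were made on different days per the labels. Vehicle and dex libraries of 1 condition and number deviated together (residual correlations 0.404 to 0.905, all 18 over 0.1), so dex responses also have a fit with 18 pair terms (12 residual degrees of freedom; median biological coefficient of variation 6.81%, against 15.9% without). Alternatives were TMM factors, no filter, DESeq2 1.42.0, the replicate block, leaving out each library and, added after seeing the data, leaving out libraries rich in 28S rRNA and the 4 comparisons of the Hic-5 effect between backgrounds. The fit without a block was tested on simulated data for siHic5siNS against siNSsiNS with vehicle. The fit with pair terms was tested likewise for the dex response with siNSsiNS. The other fits and comparisons were not tested in this way. Intervals and errors cover the spread between these libraries only.

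Members and lists were chosen with earlier results of these data known. Named members are a fixed reference set (the common collagen IV, V and VI chains, COL1A1, COL3A1, COL12A1, LAMA5, LAMB1, LAMC1 and the glycoproteins and LOX family), the largest called changes in each comparison, and up to 4 called genes of each list. Others were named to account for calls. The values of 1 member are not reported here, though it is in the counts.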

Additional observations from a re-analysis of the deposited data

Results flagged for a closer look

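The Hic-5 siRNA effect differed between backgrounds, by the interaction term (edgeR, adjusted p under 0.05, vehicle libraries), for the following members. With BRM siRNA against without it, the log2 differences were LAMA4 -5.37, COL6A3 -3.92, FN1 -2.83, COL4A1 -2.44, COL20A1 -2.35, COL13A1 -2.10, FBN1 -2.08, COL6A1 -1.87, COL5A1 -1.75, COL5A3 -1.74, COL4A2 -1.66, COL6A2 -1.47, COL5A2 -1.45, TNC -1.41, FBN2 -1.05, LAMA1 -1.01, LAMB1 -0.96 and COL27A1 -0.94 on the lower side, and LOXL2 1.46 and COL4A4 1.64 on the higher side. The LAMA4 value was lost without siHic5siNS replicate 3 (-3.92) or siBRMsiNS replicate 3 (-3.46).

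With CHD9 siRNA against without it, the log2 differences were COL6A3 -2.27, COL13A1 -1.81, COL4A1 -1.75, FN1 -1.75, COL5A3 -1.51, TNC -1.21, LAMA1 -1.13, LAMB1 -1.09, COL7A1 -1.08 and COL4A2 -1.03 on the lower side, and LAMB2 0.79, COL24A1 1.68 and COL4A4 2.02 on the higher side. The libraries labelled siCHD9siHic5 enter each of these, and their CHD9 transcript goes against the label.

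The dex response differed from that with siNSsiNS, in the fit with the replicate block, for LAMC3 with siHic5siNS (0.51) and for COL12A1 (0.45), FBN2 (0.48) and LAMC1 (0.30) with siCHD9siNS. None of these 4 was called without the block (edgeR adjusted p = 1.00 in each case).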

How the results depend on the processing

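With the replicate block (a term for the replicate number), siBRMsiNS against siNSsiNS in vehicle libraries went from 3 to 11 members called (14.7% of all genes), and the CHD9 siRNA interaction in vehicle libraries from 13 to 21 (27.1%). The replicate numbers did not pair every library in these comparisons (residual correlations of -0.223 to 0.664 over the vehicle siRNA comparisons, all over 0.1 in 5 of 9, and of -0.110 to 0.575 with dex, all over 0.1 in 2 of 5). For dex responses the block for vehicle and dex pairs gave 4, 6, 16, 2, 3 and 3 members with siNSsiNS, siHic5siNS, siCHD9siNS, siBRMsiNS, siCHD9siHic5 and siBRMsiHic5, and for their differences 1 with siHic5siNS and 3 with siCHD9siNS, against 0 or 1 without it. DESeq2 gave 8 members for siBRMsiNS in vehicle libraries and 1 for the dex response with siCHD9siHic5, and its share of all genes was not counted. TMM factors and the fit with no filter on low counts moved no count of members by over 1.5 times.

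Leaving out the 10 libraries over 3% 28S rRNA, chosen after the data were seen, gave 0 members for siBRMsiNS and 17 for siBRMsiHic5 against siNSsiNS with vehicle, 1 and 15 with dex, 5 for siBRMsiHic5 against siBRMsiNS, and 6 (vehicle) and 10 (dex) for the BRM siRNA interaction. This leaves 1 vehicle library each of siBRMsiNS and siBRMsiHic5 and 1 dex library of siBRMsiHic5, so fewer samples enter. COL9A2 in siBRMsiHic5 against siHic5siNS reversed, from -0.73 to 0.17 (adjusted p = 0.735); the cause was not tested.

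With 1 library left out, members called in vehicle libraries ranged from 29 to 36 for siHic5siNS, 10 to 20 for siCHD9siNS, 0 to 9 for siBRMsiNS, 33 to 36 for siCHD9siHic5 and 20 to 26 for siBRMsiHic5 against siNSsiNS. They ranged from 20 to 26 for siCHD9siHic5 against siCHD9siNS, 5 to 15 for siBRMsiHic5 against siBRMsiNS, 18 to 22 and 21 to 23 for these combined siRNA groups against siHic5siNS, and with dex, in the order of the first sentence, 32 to 36, 5 to 17, 1 to 11, 31 to 32 and 20 to 26. The dex responses without the block stayed at 0, except 0 to 1 with siCHD9siNS and siCHD9siHic5. With the block and 1 pair left out they ran from 1 to 2, 3 to 3, 7 to 14, 0 to 1, 1 to 3 and 2 to 5, in the order given above. The CHD9 siRNA interaction ran from 4 to 16 with vehicle and 7 to 15 with dex, and the BRM siRNA interaction from 14 to 24 and 17 to 21. Of the 384 gene results, DESeq2 lost 2 and TMM factors 7, no filter and the replicate block 0, and the rRNA setting 86, each keeping its direction, apart from the COL9A2 reversal. A level under 1 scaled CPM, as for COL4A3, COL6A5 or LAMA4, rests on few counts.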
